A study of Rattus norvegicus with 27 samples.

Results

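The transcripts of 33 genes of microglia and macrophages were followed in bulk RNA sequencing libraries from the medial prefrontal cortex (mPFC) of 27 rats, 1 library per rat. The genes were taken as the rows of the count table whose NCBI gene ID carries one of 33 rat symbols, and all 33 were found among 36865 rows. They comprised 9 genes of homeostatic microglia, 3 markers of border macrophages and 21 genes of shared myeloid functions. Ctss, a lysosomal cysteine protease, and Dock2, an activator of Rac in leukocytes, were listed at 0 in every library. Polr2a, a subunit of RNA polymerase II that every cell uses, was also listed at 0, so these zeros were not read as absent expression. The remaining 31 genes were all measured.

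Microglia are the resident macrophages of the brain parenchyma. They depend on signals through the receptor CSF1R, survey their surroundings with purinergic and fractalkine receptors, and deliver complement that tags synapses. A separate population, the border macrophages of the meninges and perivascular spaces, carries the mannose receptor MRC1 and the hyaluronan receptor LYVE1. Both lineages rely on the transcription factor PU.1, the product of Spi1.

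All 27 libraries came from adult male Wistar rats that had passed repeated anxiety tests in the elevated plus-maze, the open field and the light-dark box. They were chosen along the ranking of a composite anxiety score and killed by decapitation at rest. The labels name 1 treatment for every rat, "Learned helplessness", and list acoustic startle and fear conditioning among the tests, tests that the methods of the study give for another strain of rat. For trait anxiety and its neural correlates the study tested 2 cohorts of male Wistar rats, and the labels do not name the cohort of a rat. The libraries therefore formed 1 group with no control group, and the anxiety scores were not used here. Nothing in the labels separates the rats further except the number in the library title. Total counts were parted by this number. They lay between 4907255 and 8568317 in the 16 libraries numbered up to 31 (lower-numbered libraries) and between 9404220 and 12771309 in the 11 libraries numbered from 32 (higher-numbered libraries). Depth, library preparation, cohort and any other difference between the rats cannot be told apart between these sets. The fits on a reference gene therefore carry the set in the model, and correlations are given over all libraries and, for the pairs the text turns on, within each set. None of the 351 pairs of libraries held identical counts. Levels are normalized counts (counts divided by the size factor of the library), which are not corrected for transcript length. They are compared only within a gene or, as sums, within the same list of genes.

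The genes Mrc1 (gene ID 291327), Btk (367901) and Cytip (311047) stood on the lists of anxiety-associated genes of the study, which were drawn from these same libraries. Mrc1 and Cytip were listed for a single elevated plus-maze test and Btk for the summary over its repeats. Cytip was among the least robust genes of the study, low in its sequencing and undetected by its PCR. The behaviour of the 3 genes here is therefore no independent evidence for those lists. Promoter sequences of these 3 genes and of Cd53 are shown because their transcripts were correlated over the 27 libraries, less closely so within the higher-numbered ones. RefSeq entries (assembly GRCr8) were found for 22 of the 33 genes, and each line below gives the 250 bases before the annotated start, 5′ to 3′ on the strand of the gene. Capitals mark a match, on either strand, to the PU.1 core AGGAAGT or to the ETS-IRF composite, a site for PU.1 beside an IRF factor, searched as GGAA and TGAAA with 1 base of any kind between them.
Mrc1, chr17:82157475-82157724, plus strand: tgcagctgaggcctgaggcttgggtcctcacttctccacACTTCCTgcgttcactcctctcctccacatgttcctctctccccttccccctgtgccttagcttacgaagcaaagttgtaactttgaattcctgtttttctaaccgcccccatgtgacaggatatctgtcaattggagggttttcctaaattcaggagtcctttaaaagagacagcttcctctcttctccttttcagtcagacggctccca
Btk, chrX:102055144-102055393, minus strand: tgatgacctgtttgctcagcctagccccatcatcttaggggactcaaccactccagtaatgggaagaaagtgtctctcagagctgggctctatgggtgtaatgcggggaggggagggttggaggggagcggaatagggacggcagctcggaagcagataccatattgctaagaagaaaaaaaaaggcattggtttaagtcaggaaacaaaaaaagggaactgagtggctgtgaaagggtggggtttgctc
Cytip, chr3:63134833-63135082, minus strand: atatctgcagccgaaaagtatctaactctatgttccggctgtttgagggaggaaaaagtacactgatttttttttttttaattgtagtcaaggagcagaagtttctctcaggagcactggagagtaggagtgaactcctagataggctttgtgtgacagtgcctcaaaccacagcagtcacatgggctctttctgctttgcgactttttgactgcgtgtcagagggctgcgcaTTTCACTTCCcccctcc
Cd53, chr2:197087897-197088146, minus strand: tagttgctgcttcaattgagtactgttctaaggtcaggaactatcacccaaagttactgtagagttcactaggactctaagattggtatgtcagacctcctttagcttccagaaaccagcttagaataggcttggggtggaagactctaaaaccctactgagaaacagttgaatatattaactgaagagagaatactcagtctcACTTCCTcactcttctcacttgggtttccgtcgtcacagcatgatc
Counting back from the annotated start to the first base of the match, the PU.1 core lay at -211 in the promoter of Mrc1 and at -46 in that of Cd53, and the composite lay at -17 in that of Cytip. Neither was found in the window of Btk. Of the 22 promoters, 6 (27.3%) held the PU.1 core, namely those of Ctss, Cd53, C1qb, Dock2, F13a1 and Mrc1, against 7.08% of 33469 promoters of the same length. The composite was present in 2 (9.09%), Cytip and Cd68, against 0.535%. These are matches of letters only. The genes P2ry12, Tmem119, Selplg, Sall1, Spi1, C1qc, Tyrobp, Fcer1g, Lyn, Ly86 and Aif1 had no entry.

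The spread between libraries, 1 per rat, was first set against counting error. Of the 31 measured genes, 29 varied more than a Poisson distribution allows (chi-square dispersion test, Benjamini-Hochberg adjusted), the exceptions being Irf8 and Ly86. This was also true of 89.8% of all 11730 genes tested, so the share by itself is close to the background. The SD on the log2 scale, taken of log2(normalized count + 1), was 0.32 at the median of the 31 genes and 0.19 at that of all genes tested. Among the 31, 10 lay at or above the 90th percentile of all genes. The largest spread was that of Spi1, with an SD of 1.38, followed by Cytip at 1.01, Mrc1 at 0.95 and Btk at 0.79. The smallest were those of Sall1 at 0.16 and Aif1 at 0.17. In bulk tissue, fewer cells of a type and less RNA per cell cannot be told apart, and this holds for every level given here.

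**Figure D1:**
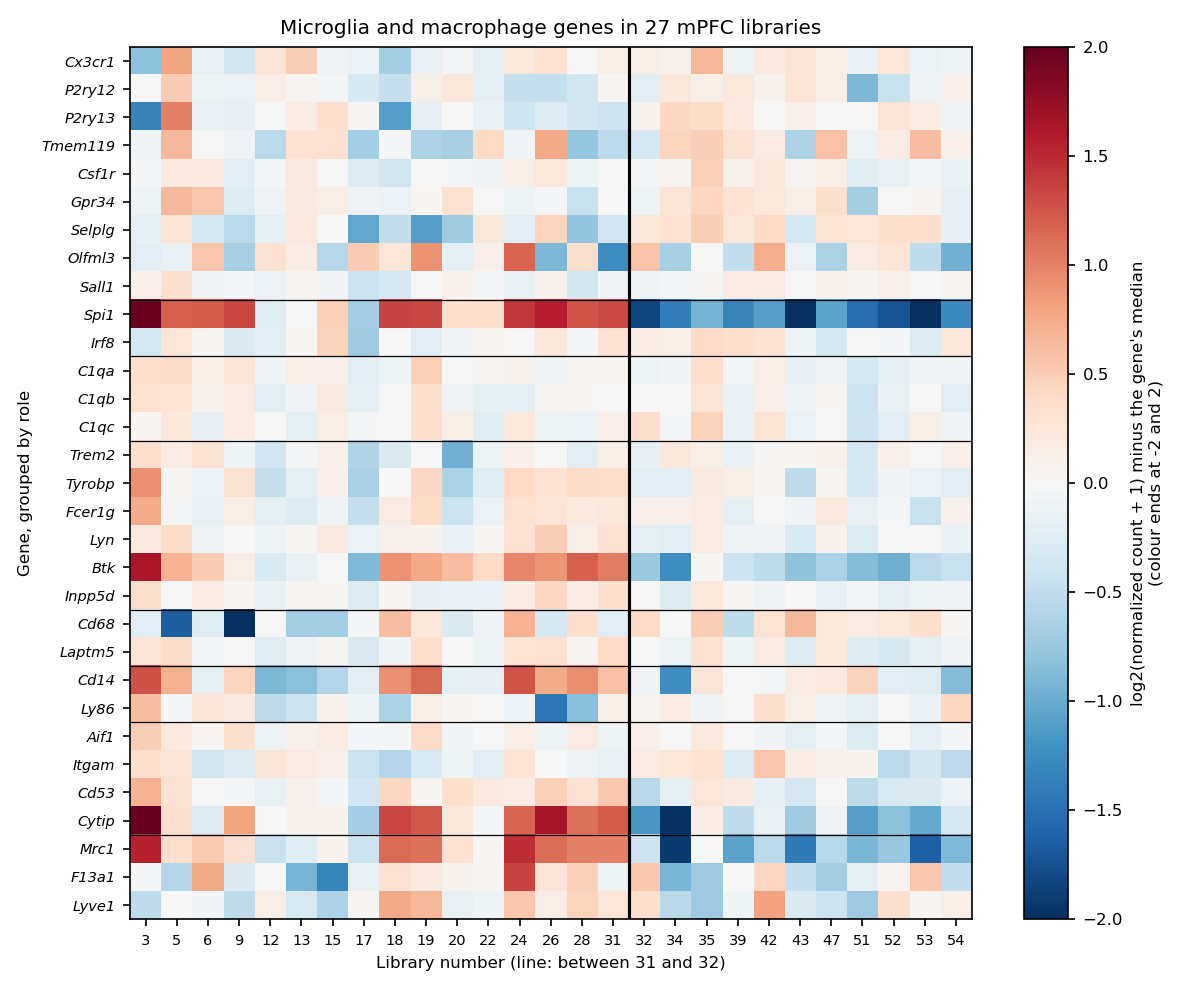
Level of the 31 measured genes (rows, grouped by role) in the 27 libraries (columns, by library number), as log2(normalized count + 1) minus the median of the gene, red above and blue below it, with colours ending at -2 and 2. The vertical line separates the libraries up to 31 from those from 32. Spi1, Btk, Cytip and Mrc1 are the rows that change most across this line, and library 3 has the highest value of each.

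The homeostatic genes include the fractalkine receptor Cx3cr1, the purinergic receptors P2ry12 and P2ry13, the surface protein Tmem119, the CSF1 receptor Csf1r, the lysophosphatidylserine receptor Gpr34, the selectin ligand Selplg, the secreted protein Olfml3 and the transcription factor Sall1. The normalized count of Cx3cr1 lay between 62.7 and 193 (median 111), lowest in library 3 and highest in library 5. P2ry12 ranged from 57.0 to 153 (median 107) and Csf1r from 677 to 1208 (median 872). P2ry13 ran from 9.18 in library 3 to 50.8 in library 5 (median 24.8). Library 5 thus held the highest levels of Cx3cr1, P2ry12, P2ry13, Gpr34 and Sall1. Tmem119 ranged from 97.7 to 286, Selplg from 127 to 385, Gpr34 from 69.4 to 176, Olfml3 from 19.7 to 110 and Sall1 from 233 to 393. The median SD on the log2 scale was 0.35 over the 9 genes, and Olfml3 had the largest at 0.60.

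Of the 9 homeostatic genes, 8 did not pass the test between the library number sets, with log2 differences (lower-numbered minus higher-numbered) from -0.23 in P2ry13 to 0.21 in Olfml3. Selplg was lower in the lower-numbered libraries, where it ranged from 127 to 373 (median 224), than in the others, where it ranged from 215 to 385 (median 328). The sets overlapped. The log2 difference of Selplg was -0.46 (SE 0.14, adjusted p = 0.018, edgeR quasi-likelihood test). Between the same sets, 18% of all 11716 genes tested were called, 9.18% higher and 8.85% lower in the lower-numbered libraries.

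Of the transcription factors, 1 was called between the sets. Spi1 (gene ID 366126), which encodes PU.1, ranged from 221 to 2064 normalized counts in the lower-numbered libraries (median 846) and from 75.6 to 186 in the higher-numbered ones (median 136). The sets did not overlap, which was the case, in this direction, for 0.281% of all 11730 genes compared, and in the opposite direction for 0.0426%. Library 3 was highest at 2064, followed by library 26 at 1071 and library 24 at 954, and library 17 was the lowest of its set. The means were 781 ± 436 (SD, n = 16) and 131 ± 35.3 (SD, n = 11), a log2 difference of 2.57 (SE 0.27, adjusted p = 3.3e-07). Without library 3 the difference was 2.40. Irf8, a partner of PU.1 in myeloid cells, ranged from 22.2 to 51.4 with a median of 37.2. Its log2 difference between the sets was -0.10 (SE 0.11).

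**Figure D2:**
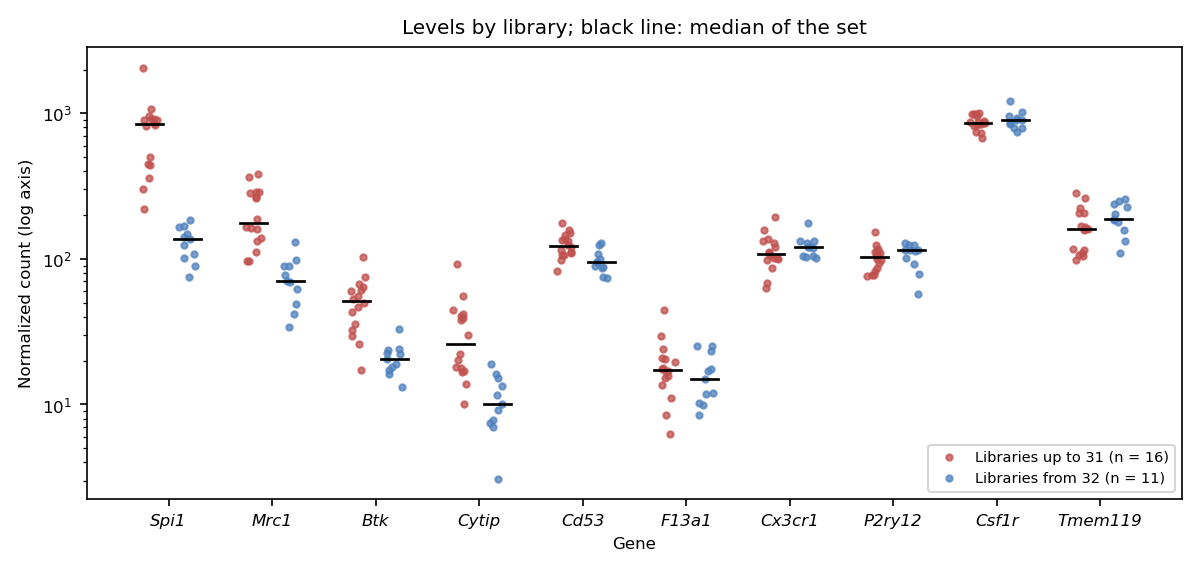
Normalized counts (log axis) of 10 genes in each library, with 16 libraries numbered up to 31 in red and 11 from 32 in blue, and the median of each set as a black line. Spi1 is at 221 to 2064 in the first set and at 75.6 to 186 in the second, whereas the sets overlap for the other genes, Mrc1, Btk and Cytip with higher medians in the first.

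The complement genes C1qa, C1qb and C1qc encode the chains of C1q, the molecule that starts the classical pathway. C1qa ranged from 399 to 710 (median 512), C1qb from 242 to 407 (median 326) and C1qc from 163 to 299 (median 216). Their lowest library was 51 in each case. None of the 3 differed between the sets at an adjusted p under 0.05 in edgeR, and their log2 differences reached 0.15 at most, in C1qa.

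The receptor adaptors carry signals from surface receptors to kinases. Trem2 is a lipid receptor that signals through the adaptor Tyrobp, Fcer1g is the common gamma chain of Fc receptors, Lyn and Btk are tyrosine kinases and Inpp5d is the phosphatase SHIP1. Btk ranged from 17.2 to 102 in the lower-numbered libraries (median 51.6) and from 13.2 to 33.3 in the higher-numbered ones (median 20.6). Library 3 was the highest and the sets overlapped. Btk had means of 51.3 ± 21.3 (SD, n = 16) and 20.9 ± 5.30 (SD, n = 11), a log2 difference of 1.29 (SE 0.20, adjusted p = 6.7e-05). Lyn was at 119 to 183 (median 138) against 105 to 147 (median 125), with a log2 difference of 0.21 (SE 0.07, adjusted p = 0.038). This small difference of Lyn missed the threshold without library 3 (adjusted p = 0.051) and without a filter on low counts (adjusted p = 0.055). The other genes of this role were not called. Tyrobp spanned 66.7 to 200 over all libraries, Fcer1g 118 to 277, Trem2 53.5 to 132 and Inpp5d 287 to 469. Library 3 was the highest for Tyrobp, Fcer1g and Trem2.

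Among the genes of the lysosome, Laptm5, a lysosomal membrane protein of leukocytes, ranged from 256 to 422 (median 321). Cd68, a lysosomal glycoprotein of phagocytes, ranged from 1.37 to 20.8 (median 12.5), and counting error made up 58.6% of its variance. Of the genes of pattern recognition, Cd14, the co-receptor for lipopolysaccharide, ranged from 9.08 to 44.3 in the lower-numbered libraries (median 26.1) and from 6.98 to 24.8 in the others (median 17.4). The log2 difference of Cd14 was 0.56 (SE 0.24, adjusted p = 0.10), and it passed the threshold without libraries 12 and 20, 2 libraries that stood apart in an earlier look at these data (adjusted p = 0.048). Ly86, which binds the receptor-like protein CD180, ranged from 7.27 to 33.6 and did not vary beyond counting.

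Leukocyte motility and adhesion were covered by Aif1 (IBA1, an actin-bundling protein), Itgam (CD11b), the tetraspanin Cd53 and Cytip, which binds the integrin regulator cytohesin-1. Cytip ranged from 10.1 to 91.8 in the lower-numbered libraries (median 26.1) and from 3.10 to 18.9 in the higher-numbered ones (median 10.1). Library 3 was again the highest, at 91.8, and library 26 followed at 55.7. The means of Cytip were 32.3 ± 20.7 (SD, n = 16) and 10.9 ± 4.67 (SD, n = 11), a log2 difference of 1.54 (SE 0.30, adjusted p = 0.00055). Cd53 was at 82.9 to 177 (median 123) against 73.7 to 129 (median 95.3), a log2 difference of 0.38 (SE 0.10, adjusted p = 0.011). Aif1 (136 to 231) and Itgam (50.4 to 113) were not called.

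Of the 3 border macrophage genes Mrc1, F13a1 and Lyve1, the first was called between the sets. Mrc1 ranged from 96.4 to 384 in the lower-numbered libraries (median 177) and from 34.1 to 131 in the higher-numbered ones (median 70.7). It was highest in library 3 at 384, then in library 24 at 368, and the sets overlapped. The means were 212 ± 93.8 (SD, n = 16) and 73.9 ± 27.9 (SD, n = 11), a log2 difference of 1.52 (SE 0.23, adjusted p = 4.4e-05). F13a1, the A subunit of coagulation factor XIII, ranged from 6.29 to 44.9 with a log2 difference of 0.21 (SE 0.23). Lyve1 ranged from 11.6 to 35.6 (median 19.9) with a log2 difference of 0.13 (SE 0.18). Whether the differences of Mrc1 and Lyve1 themselves differ was not tested.

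In all, 6 of the 31 genes were higher and 1 was lower in the lower-numbered libraries. Without Mrc1, Btk and Cytip, 3 of 28 were higher (Spi1, Cd53 and Lyn) and 1 was lower, shares of 10.7% and, for both directions, 14.3%, near the background of 18%. The median log2 difference was 0.09 over the 31 genes and 0.00062 over all genes tested.

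**Figure D3:**
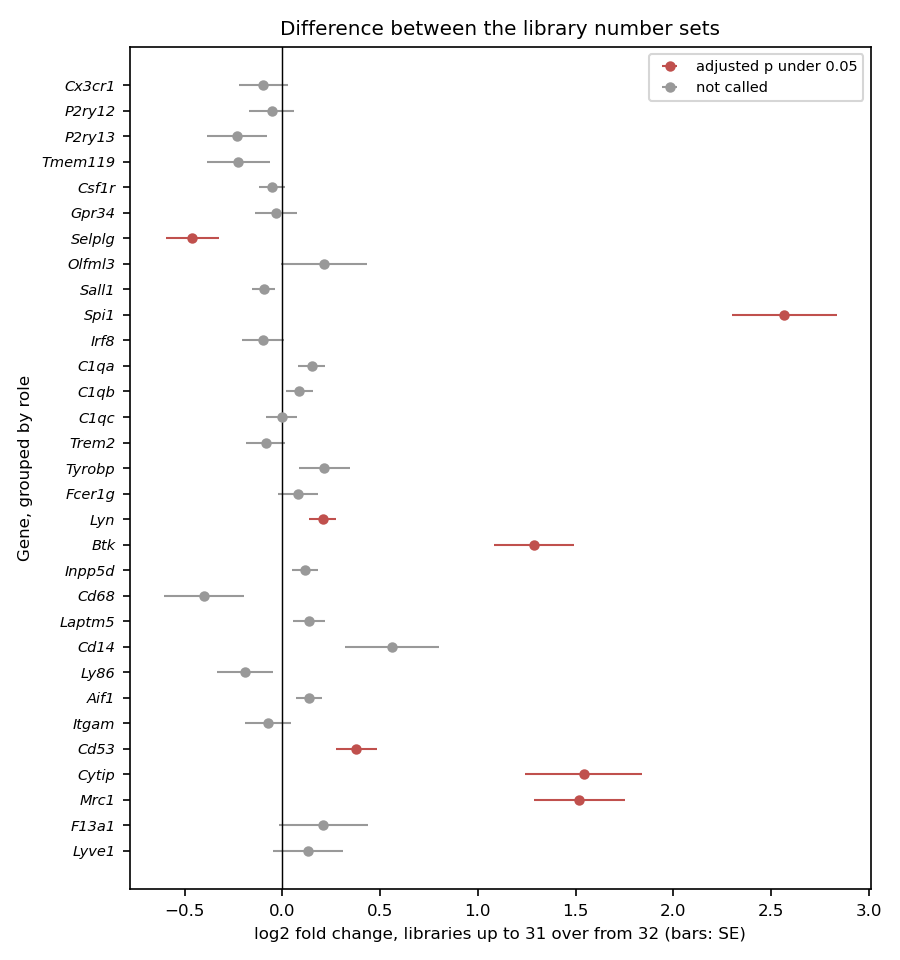
Log2 fold change between the libraries numbered up to 31 and those from 32 (points; bars are the SE of the edgeR fit) for the 31 measured genes, grouped by role, with genes at an adjusted p under 0.05 in red. Spi1 lies at 2.57 and Cytip, Mrc1 and Btk between 1.29 and 1.54, while the homeostatic genes lie between -0.46 and 0.21.

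Total counts moved with the same genes. Over the 27 libraries, Spearman's rho with the total count was -0.89 for Spi1, -0.84 for Mrc1, -0.79 for Btk and -0.78 for Cytip, against 0.30 for Cx3cr1 and 0.62 for P2ry13. Within the lower-numbered libraries (n = 16) it was -0.69, -0.64, -0.48 and -0.54 for the same 4 genes, and within the higher-numbered ones (n = 11) -0.25, -0.03, -0.24 and -0.10. For P2ry13 it was 0.57 and -0.13 within the sets, so depth ran opposite ways with P2ry13 and with Mrc1 in the lower-numbered libraries. The ribosomal RNA Rn18s rose with the same genes over all libraries, at 0.68 for Spi1, 0.60 for Mrc1, 0.65 for Btk and 0.76 for Cytip, against -0.02 for Cx3cr1 and -0.44 for P2ry13. Within the sets these 4 genes had rho of 0.30 to 0.56 and of 0.12 to 0.56 with Rn18s. Bc1, a short noncoding RNA of neurons, did so at 0.76, 0.81, 0.82 and 0.72, against -0.31 for Cx3cr1 and -0.59 for P2ry13. Its rho with the 4 genes was 0.64 to 0.79 within the lower-numbered and -0.39 to 0.04 within the higher-numbered libraries. These values are a description with no test, and the part of depth, Rn18s and Bc1 in the levels was not tested.

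How far the genes move together was described by Spearman's rho of log2(normalized count + 1) between pairs. These correlations share libraries and size factors, and the pairs are not independent. They carry no p, except for the pairs of Mrc1, Btk and Cytip with homeostatic genes, tested below. The median over the 465 pairs of the 31 genes was 0.16, against -0.0049 over all genes tested. Among the 36 pairs of homeostatic genes it was 0.38. The highest of these was 0.81, between Selplg and Tmem119 (0.87 within the lower-numbered and 0.59 within the higher-numbered libraries). Csf1r with Gpr34 followed at 0.72 (0.65 and 0.88 within the sets) and P2ry12 with Gpr34 at 0.68 (0.64 and 0.66). Olfml3 stood apart from the other homeostatic genes, with rho down to -0.40, to Tmem119.

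Mrc1, Btk and Cytip formed a tighter block, with rho between 0.89 and 0.92. Within the lower-numbered libraries the median of their 3 correlations was 0.86 and within the higher-numbered ones 0.54. Spi1 belonged to the same block, with rho of 0.94 to Mrc1 (0.94 and 0.54 within the sets), 0.92 to Cytip (0.88 and 0.75) and 0.89 to Btk (0.79 and 0.53). Cd53 had 0.88 to Btk (0.81 and 0.72) and 0.74 to Mrc1, which was 0.68 within the lower-numbered and 0.19 within the higher-numbered libraries. The pair Mrc1 and Btk likewise had 0.90 and 0.41 within the sets. The pair F13a1 and Lyve1 was correlated at 0.70 (0.66 and 0.69 within the sets). Mrc1, by contrast, had rho of 0.33 to F13a1 (0.54 and 0.14 within the sets) and 0.30 to Lyve1 (0.44 and 0.24). The 3 C1q genes had a median of 0.55 (0.46 and 0.63 within the sets).

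**Figure D4:**
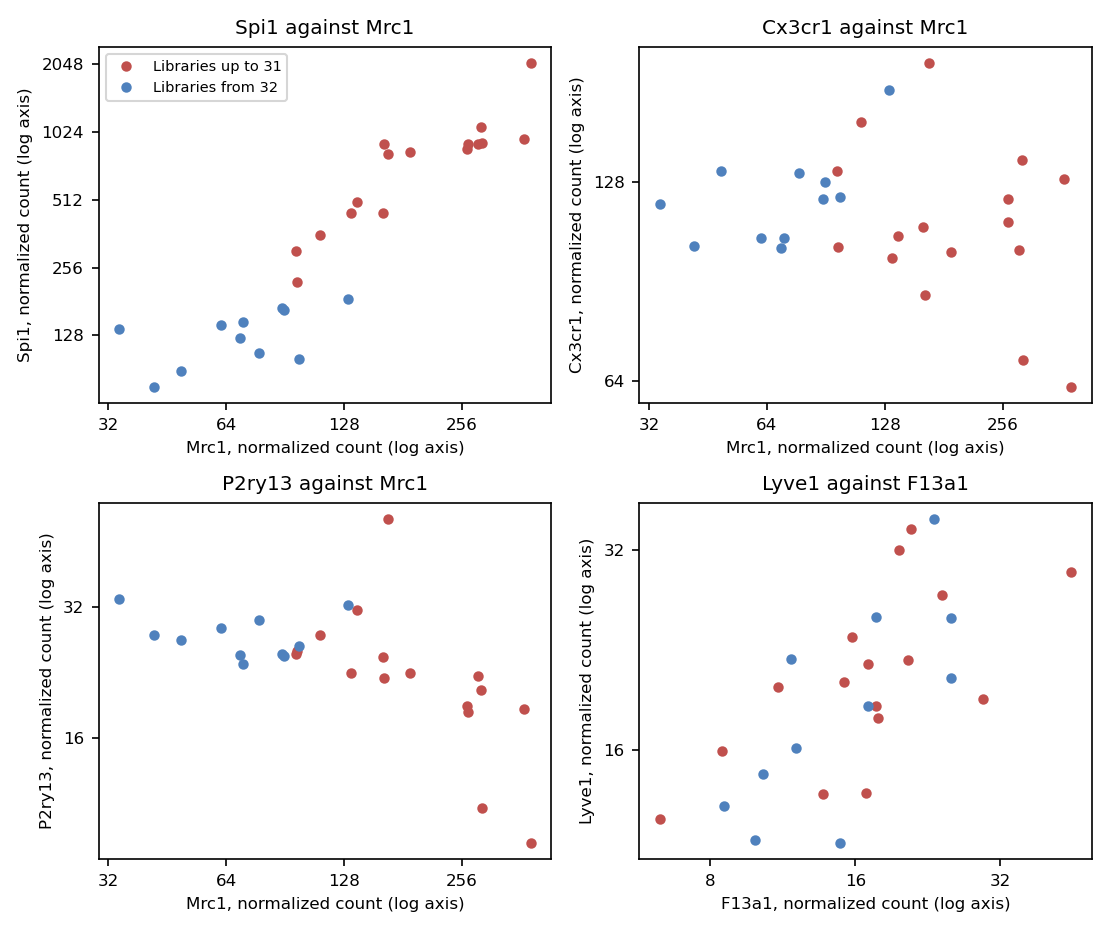
Normalized counts (log axes) of 4 pairs of genes, each point 1 library, with libraries up to 31 in red and from 32 in blue. Spearman's rho was 0.94 for Spi1 with Mrc1, -0.16 for Cx3cr1 with Mrc1 and 0.70 for Lyve1 with F13a1. For P2ry13 with Mrc1 it was -0.81 within the red points and -0.25, not called, within the blue points.

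The comparison of Mrc1, Btk and Cytip with the homeostatic genes comprised 27 pairs, with a permutation test (100000 permutations, two-sided) for each and Benjamini-Hochberg adjustment over the pairs. Spearman's rho ranged from -0.69 to 0.18 with a median of -0.12, and 3 of the 27 pairs were called. All 3 were negative and involved P2ry13, a low gene with a mean of 24.9 normalized counts. Mrc1 and P2ry13 had a rho of -0.69 (permutation p = 8e-05, adjusted p = 0.0015) and an r of -0.60 (permutation p = 0.00064, adjusted p = 0.0077). For Btk and P2ry13 rho was -0.69 (permutation p = 0.00011, adjusted p = 0.0015) and r was -0.57 (permutation p = 0.00085). Cytip and P2ry13 gave a rho of -0.64 (permutation p = 0.00045, adjusted p = 0.0041) and an r of -0.65 (permutation p = 0.00022). Without the 2 libraries farthest from the median of P2ry13, r was -0.47, -0.39 and -0.48. With library 3 left out, rho stayed at -0.66, -0.65 and -0.60 for the 3 pairs, and r was no longer called, with adjusted permutation p between 0.061 and 0.13.

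Within the lower-numbered libraries the 3 rhos with P2ry13 were -0.81, -0.80 and -0.74, all called by rho (adjusted permutation p between 0.0049 and 0.013). By r none of the 27 pairs was called there, the 3 with P2ry13 having adjusted permutation p between 0.068 and 0.29. Within the higher-numbered libraries they were -0.25, -0.19 and -0.23 and none of the 27 pairs was called, 1 having an unadjusted permutation p under 0.05. There the median over the 27 pairs was 0.25. The relation to P2ry13 was thus called by rho, and not by r, in 1 of the sets, and the difference between the sets was not tested. Cx3cr1 had a rho of -0.16 with Mrc1, -0.15 with Btk and -0.05 with Cytip (adjusted permutation p between 0.80 and 0.85). Within the higher-numbered libraries these were 0.51, 0.06 and 0.40, not called. Csf1r had 0.09, 0.15 and 0.13 over all libraries, 0.23, 0.15 and 0.12 within the lower-numbered and 0.37, 0.55 and 0.65 within the higher-numbered ones.

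To find which genes follow a microglial or a macrophage gene, each gene was fitted on the log2 level of a reference gene with the library number set in the model (edgeR quasi-likelihood test). A coefficient of 1 means that a gene doubled when the reference doubled. With Cx3cr1 as the reference, 2 of 30 genes were called, both positive, against a background of 7.15% positive, 5.61% negative and 12.8% in either direction. They were P2ry13, with 0.90 per doubling (SE 0.19, adjusted p = 0.003), and Csf1r, with 0.35 (SE 0.08, adjusted p = 0.0045). The median coefficient of the 8 other homeostatic genes was 0.34. Mrc1, Btk and Cytip had coefficients of -0.20, -0.27 and -0.57, none of them called, and without library 3 these became 0.12, 0.11 and 0.07. In the same fit without library 3, 380 genes were called in all in place of 1535.

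With Mrc1 as the reference, 10 of 30 genes were called, all positive, against a background of 9.91% positive and 21.8% in either direction. The number of all genes called with Mrc1 fell without libraries 12 and 20, as given in the closing sections. Without Btk and Cytip, which like Mrc1 stood on the lists of the study, 8 of 28 members were called (28.6%). The largest coefficients of the 10 genes were those of Cytip at 1.09 (SE 0.13, adjusted p = 1.6e-06), Spi1 at 0.90 (SE 0.12, adjusted p = 9.8e-06), Cd14 at 0.82 (SE 0.13, adjusted p = 8.7e-05) and Btk at 0.71 (SE 0.10, adjusted p = 1.4e-05). Tyrobp (0.41), Fcer1g (0.33), Laptm5 and Cd53 (both 0.24), Inpp5d (0.18) and Lyn (0.15) were lower. The receptor adaptors and kinases thus rose with Mrc1 in 5 of 6 cases, Btk among them, the exception being Trem2 at 0.11 (SE 0.08). Cd53 was not called without library 3 (adjusted p = 0.069) and Lyn was not called without libraries 12 and 20 (adjusted p = 0.077).

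None of the 9 homeostatic genes was called with Mrc1, their coefficients ranging from -0.31 in P2ry13 (adjusted p = 0.067) to 0.26 in Olfml3. The 3 C1q genes had 0.10 to 0.12 and were not called. F13a1, at 0.42 (SE 0.18, adjusted p = 0.081), and Lyve1, at 0.30 (SE 0.14, adjusted p = 0.13), were not called either. The median coefficient was 0.12 over the 30 genes and 0.0058 over all genes tested. With F13a1 in place of Mrc1, Lyve1 (0.55, SE 0.12, adjusted p = 0.012) and Olfml3 (0.57, SE 0.15, adjusted p = 0.047) were called, against 1.87% of all genes positive and 0.0333% negative, and Mrc1, with 0.43 (SE 0.18), was not. With Csf1r in place of Cx3cr1, Cx3cr1 (1.29, SE 0.27, adjusted p = 0.040) and Gpr34 (1.12, SE 0.24, adjusted p = 0.047) were called, against 0.216% of all genes.

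With both reference genes in 1 model, 11 of 29 genes were called for Mrc1, 10 positive and 1 negative, against backgrounds of 11.2% and 11.5%. Without Btk and Cytip, 8 of 27 were positive and 1 was negative. The negative one was P2ry13, with -0.30 per doubling of Mrc1 (SE 0.09, adjusted p = 0.019). P2ry13 also rose with Cx3cr1, at 0.88 per doubling (SE 0.16, adjusted p = 0.00074), and Csf1r did so at 0.36 (SE 0.07, adjusted p = 0.0019), the 2 called for Cx3cr1. The background for Cx3cr1 was 7.81% positive, 7.02% negative and 14.8% in either direction. Without library 3 the number of genes called for Cx3cr1 in this model fell from 1796 to 540. That for Mrc1 fell from 2755 to 1737 without libraries 12 and 20 and to 1476 without the set. Spi1, Cytip, Btk and Cd14 kept Mrc1 coefficients of 0.88, 1.07, 0.71 and 0.83. Their Cx3cr1 coefficients, from -0.28 to -0.10, were not called.

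**Figure D5:**
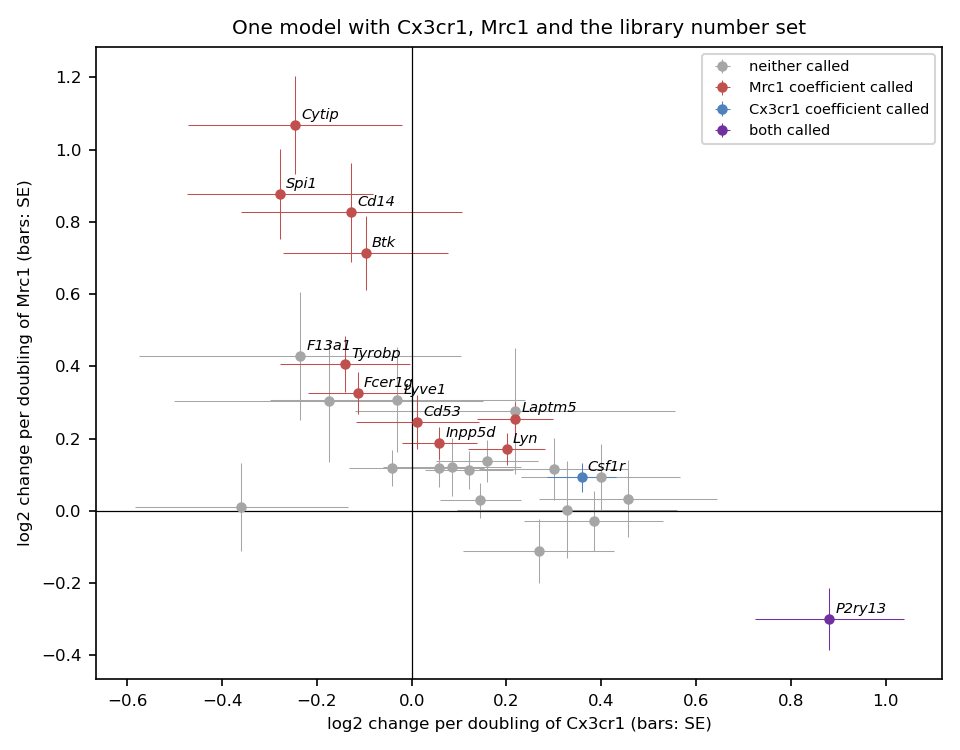
Coefficients of 29 genes in 1 edgeR model with Cx3cr1 (horizontal axis), Mrc1 (vertical axis) and the library number set, in log2 change per doubling, with bars for the SE. Cytip, Spi1, Cd14 and Btk lie between 0.71 and 1.07 on the Mrc1 axis, Csf1r is called for Cx3cr1 alone, and P2ry13 is called for both, at 0.88 and -0.30.

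The genes of the whole table whose levels were most like those of Mrc1, Btk and Cytip were ranked by Spearman's rho over the 27 libraries. For Mrc1 they were Clic1 and Pparg (both 0.97), Ctsc and Arpc1b (both 0.96) and Vim (0.95). Within the sets, Clic1 had rho of 0.94 and 0.94 to Mrc1, and Pparg 0.92 and 0.83. For Btk they were Def6 (0.95), Msn and Alox5ap (both 0.93), Myo1g and Gpr137b (both 0.92). Within the higher-numbered libraries the rho of Btk was 0.82 with Def6 but 0.40 with Alox5ap. For Cytip the order was Spi1, Ctsc, Pparg, Atp6v0d2 and Btk, all at 0.92. Vim, the intermediate filament vimentin, had 4347 ± 2008 normalized counts (SD, n = 16) in the lower-numbered and 1449 ± 490.5 (SD, n = 11) in the higher-numbered libraries. Pparg, a nuclear receptor, had 112 ± 49.7 (SD, n = 16) and 23.8 ± 10.97 (SD, n = 11), a log2 difference of 2.23 (SE 0.25). Vim and Pparg were picked by their rho with Mrc1, which itself differed between the sets, so their differences are no separate result.

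When the lower of the rhos within the sets was used to rank, the genes most like Mrc1 were Clic1, Cyba, Gpx1, Ctsc and Gnai2, all at 0.85 or above. Those most like Btk were then Ubtd1, Def6, Hmgn5, Cytip and Renbp, and those most like Cytip were Sh3bp2, Plek, Cd9, Arhgdib and Pim1. Hmgn5, like Btk and Cytip, stood on the lists of the study.

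A wider list of 40 microglial genes was read in the same fits. Of the 38 tested, 23 were called positive with Mrc1 and none negative, with a median coefficient of 0.24, and 13 were higher and none lower in the lower-numbered libraries. The shares over all genes were 9.91% positive with Mrc1 and 9.18% higher between the sets. The members called with Mrc1 included Cybb (0.94, SE 0.12, adjusted p = 3.7e-06) and Cyba (0.75, SE 0.07, adjusted p = 9.4e-09), both subunits of the phagocyte NADPH oxidase. Runx1, a transcription factor of blood cells, had 0.75 (SE 0.12), and the receptor Tlr2 had 0.65 (SE 0.07). Arhgap25, by comparison, had -0.05 (SE 0.04). With Cx3cr1 as the reference, 3 of 38 were positive (Slco2b1, Mertk and Entpd1) and 1 was negative (Coro1a), against 7.15% and 5.61% of all genes.

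Genes of activated microglia were called with Mrc1 in 8 of the 9 tested of 14, the exception being Apoe, against 9.91% of all genes. Among them were Ccl3 (1.06, SE 0.28), Spp1 (0.97, SE 0.17), Il1b (0.89, SE 0.15) and Tnf (0.79, SE 0.25). With Cx3cr1, 1 of the 9 was called, Ccl3, and it was negative, against 5.61% negative and 7.15% positive over all genes. Between the sets, 4 of 8 tested were higher in the lower-numbered libraries and none was lower, against 9.18% of all genes higher. Of 20 further genes of border macrophages, 4 of the 11 tested were positive with Mrc1 (Siglec1, Ccr1, Dab2 and Maf), against the same 9.91%, whereas Cd163 at 0.35 (SE 0.26) and Pf4 at 0.51 (SE 0.22) were not called. Between the sets, 4 of 9 tested (Siglec1, Ccr1, Dab2 and Cd38) were higher in the lower-numbered libraries, with a median log2 difference of 0.33, against 9.18% of all genes. Stab1, Cbr2, Cd36, Ms4a6a and Timd4 were listed at 0. The filter on low counts depended on the model, so more genes of both lists were tested with Mrc1 than between the sets. A low gene could pass this filter through the few libraries where it was high, and was then counted in these shares.

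Markers of other cells that a dissected cortex could hold were read beside these results. Of 11 tested genes of meningeal fibroblasts none was called with Mrc1, at a median coefficient of 0.47, or between the sets, and their summed level ranged from 421 to 7918 in the lower-numbered and from 519 to 4945 in the higher-numbered libraries. Of 4 tested genes of red blood cells, 3 were positive with Mrc1 (median 0.42) against 9.91% of all genes, their summed level ranging from 1296 to 5986 and from 1688 to 3605, with Hba-a2 listed at 0. Of 7 neuronal genes, 4 were negative with Mrc1 (median -0.14) against 11.9% of all genes, among them Gad2 at -0.48 (SE 0.11) and Syt1 at -0.40 (SE 0.08), and their summed level ranged from 39078 to 54262 and from 44161 to 54867. Lymphocyte genes summed to 69.5 to 117 and 86.8 to 130 normalized counts over 14 genes, with Cd79a and Cd2 listed at 0, and neutrophil genes to 42.5 to 86.0 and 56.7 to 105 over 8 genes. The part of these cells in the block of Mrc1 was not tested.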

How the data were processed

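Single-read RNA sequencing of dissected mPFC from 27 rats was analysed, with 1 library from each. The files deposited by the authors hold raw counts of reads per gene, not normalized. The submitters' processing notes name Trimmomatic, STAR and HTSeq. Versions, genome build and strand setting are not given in the sources used here, so counts of paralogs, overlapping and antisense genes are uncertain, as are genes with split loci (436 rows). Labels and methods name different library kits and section positions. Total counts ranged from 4907255 to 12771309 per library, and no column was left out. Reads without molecular identifiers cover counting error only.

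Gene IDs were named from the RefSeq list of GRCr8 (28157 of 36865 rows). Counts were divided by median-of-ratios size factors as in DESeq2, and log2(normalized count + 1) understates changes of low genes. Spread was tested by a chi-square dispersion test for genes with a mean of at least 10. Differences between library number sets and coefficients of reference genes were tested with edgeR 4.0.16 (filterByExpr, TMM, quasi-likelihood, Benjamini-Hochberg over all genes tested, threshold 0.05), with DESeq2 1.42.0 as an alternative. Further alternatives were other scalings, no filter, another pseudocount, other reference genes and left-out libraries. Models were tested on simulated counts of 11704 genes. For the set, with a log2 change of 0.6, 189 of 200 changed genes were recovered with 13 false calls. For Mrc1 194 were recovered with 7 false calls, and for Cx3cr1, at a coefficient of 1, 192 with 11. R 4.3.3 and Python 3.11.15 with scipy 1.17.1 were used.

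All 33 genes were named by role, with the 5 genes most like each of Mrc1, Btk and Cytip by each of the 2 rankings, and genes at the extremes of the marker lists. Members and lists were chosen with earlier results of these data known. P-values of the fits and permutations rest on the spread between rats, which with 1 library per rat includes library preparation. Those of the dispersion test measure the excess over counting error. Those between the library number sets cannot tell the set from depth or cohort.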

Additional observations from a re-analysis of the deposited data

How the results depend on the processing

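No paired analysis was possible because the libraries form 1 group and share no replicate numbers. Of 48 alternatives to the main counts and medians, 40 stayed within 1.5 times the main value or, for the spread, within its SD. Genes following Cx3cr1 fell from 1535 to 380 without library 3 and to 26 with Csf1r as the reference gene. Genes following Mrc1 fell from 2599 to 1467 without libraries 12 and 20 and to 229 with F13a1 as the reference. With both genes in the model, those following Mrc1 fell from 2755 to 1737 without libraries 12 and 20 and to 1476 without the set, and those following Cx3cr1 from 1796 to 540 without library 3. The cause was not tested. Of the pairs with homeostatic genes, 3 were called by rho under every alternative except within the higher-numbered libraries, with 0 by rho and by r and 1 at an unadjusted permutation p under 0.05. By r, 0 were called without library 3 and within the lower-numbered libraries, and 2 with the set regressed out. Leaving out library 3 was chosen after seeing the data.

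Reversals concerned values that were not called. Without library 3 the coefficients on Cx3cr1 were 0.12 for Mrc1, 0.11 for Btk and 0.073 for Cytip, that of Cx3cr1 on Mrc1 was 0.037, and the rho of Cytip with Cx3cr1 was 0.059. With the set regressed out, the rhos with Cx3cr1 were 0.024 for Mrc1, 0.0098 for Btk and 0.036 for Cytip, and within the higher-numbered libraries 0.51, 0.064 and 0.40. Of 341 alternatives for single genes and pairs, 322 kept direction and side of the threshold, 7 lost and 1 gained a call. Raw counts of 4 to 60 per library for Cytip and 1 to 30 for Cd68 limit their precision. P2ry13, F13a1 and Lyve1 share this limit, with mean normalized counts of 24.9, 17.6 and 20.6 against 23.6 for Cytip.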

Other observations

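Of 8 genes for ligands that act on microglia, 2 were positive and 1 was negative with Mrc1 in the model with the library number set, against 9.91% and 11.9% of all genes. Tgfb1, the growth factor that maintains microglial identity, had a coefficient of 0.49 (SE 0.05, adjusted p = 2.5e-07, edgeR quasi-likelihood test) and Pros1, a bridging ligand for phagocytosis, 0.23 (SE 0.06, adjusted p = 0.0083). Cd200, a neuronal ligand that restrains myeloid cells, had -0.12 (SE 0.03, adjusted p = 0.0081). The CSF1 receptor ligands were not called, with 0.02 (SE 0.05) for Csf1 and -0.01 (SE 0.03) for Il34. Cx3cl1, the ligand of CX3CR1, had -0.08 (SE 0.04) and was not called. Between the library number sets, 2 of the 8 were higher and 1 was lower in the lower-numbered libraries, against 9.18% and 8.85% of all genes. Cx3cl1 was the lower one, with 5739 ± 666 normalized counts (SD, n = 16) against 6472 ± 521 (SD, n = 11) in the higher-numbered ones. Cd47 and Pros1 were the higher ones, with log2 differences of 0.19 (SE 0.05, adjusted p = 0.0099) and 0.45 (SE 0.09, adjusted p = 0.001). None of the 8 was called with Cx3cr1, against 12.8% of all genes in either direction.

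Of 10 tested endothelial and mural genes 1 was positive with Mrc1, and of 7 astrocyte genes 1 was positive and 1 negative, against 9.91% positive and 11.9% negative over all genes. None of the 7 oligodendrocyte genes was called with Mrc1, though 1 was lower in the lower-numbered libraries, against 8.85% of all genes. Choroid plexus genes summed to 7.65 to 329 normalized counts in the lower-numbered and 13.5 to 152 in the higher-numbered libraries.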
